A study of Mus musculus with 2 samples.

Results

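The CCN family is a small group of secreted matricellular proteins, that is, proteins of the extracellular matrix that signal to cells rather than hold tissue together. The family was taken here as 5 genes, Ccn1 to Ccn5, known under the older symbols Cyr61, Ctgf, Nov, Wisp1 and Wisp2, out of 18193 genes named on the arrays. Its members were found as every probe set annotated to exactly 1 of these genes, which gave 10 of 34945 probe sets with 1 gene name, a probe set being a group of short probes against 1 transcript. No probe set annotated to several genes named a CCN gene, with a count of 0. All 10 lay above the floor of 31.7 signal units on both arrays.

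The study treated primary osteoblasts, the bone-forming cells, isolated from the calvaria (skull vault) of CD1 mice aged 7 days. One culture received 2 µM PP1, an inhibitor of c-Src and related tyrosine kinases, for 24 h, and the other received the vehicle DMSO for 24 h. Both had first spent 24 h without serum, in medium with 0.25% albumin, after growth in 10% serum. The labels give 1 Affymetrix array for each treatment and do not say from how many animals or cultures the RNA came, so no test between treatments was possible and every value below describes these 2 arrays.

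CCN proteins are built from modules that resemble IGF-binding proteins, von Willebrand factor type C, thrombospondin type 1 and, at the C-terminus, a cystine knot. Ccn5 lacks the last of these. They bind integrins, heparan sulfate proteoglycans and LRP receptors, and they also bind growth factors such as BMPs, VEGF and TGF-beta. Ccn1 and Ccn2 are widely used as readouts of the transcriptional coactivators YAP and TAZ with their TEAD partners, and Ccn2 is also a TGF-beta target. Ccn4 and Ccn5 were first found as genes induced by Wnt-1. In bone, Ccn1, Ccn2 and Ccn4 are known to promote osteoblast differentiation, and Ccn3 is known to bind BMP2 and to inhibit it.

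Signals were compared after the PP1 array had been scaled to the same trimmed mean as the DMSO array, and the log2 ratio is PP1 minus DMSO. Of the 5 genes, Ccn2 and Ccn4 were more than 4-fold lower in the PP1 culture, Ccn1 and Ccn5 were a little under 2-fold lower, and Ccn3 was 2.54-fold higher. By the brightest probe set of each gene, that with the highest mean log2 signal over both arrays, 2 of 5 members were at least 2-fold lower, against 1.55% of the 12111 measured genes, and 1 of 5 was at least 2-fold higher, against 2.97%. Of the 5 members 4 lay below 0, against 49% of measured genes, and 1 lay above 0, against 51%. By probe set, 4 of 10 were at least 2-fold lower and 2 of 10 at least 2-fold higher, against 1.48% and 4.33% of the 21219 named probe sets above the floor. The 10 probe sets are not independent, because several share a gene or a source sequence.

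**Figure D1:**
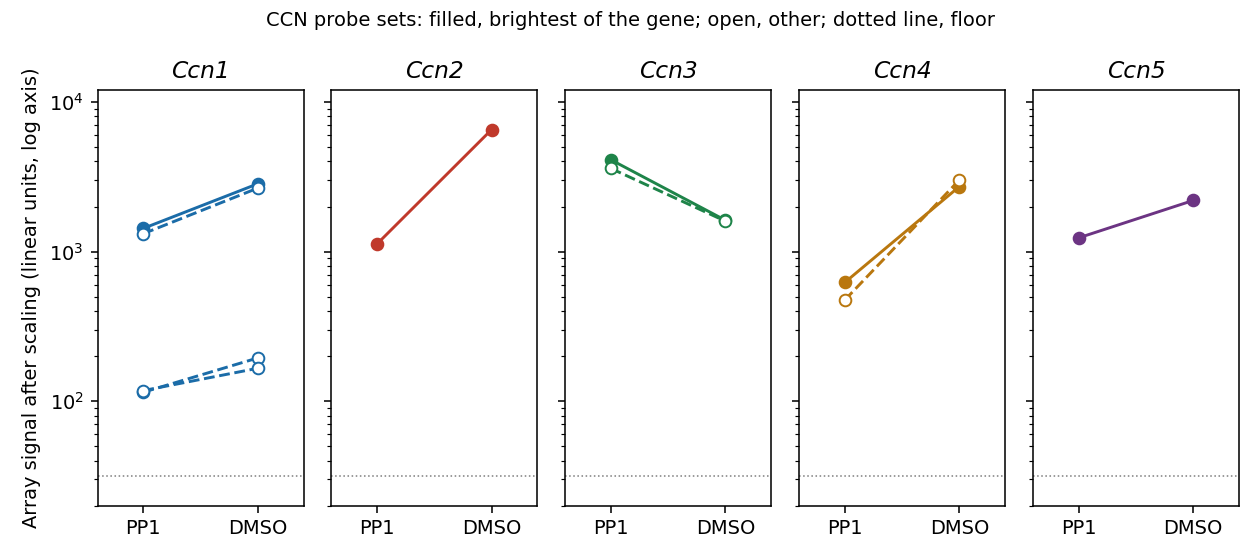
Array signal of each CCN probe set (y axis, linear signal units drawn on a log axis) on the PP1 array after scaling and on the DMSO array, with 1 panel per gene. Filled points and solid lines are the brightest probe set of the gene, open points and dashed lines the others, and the dotted line is the floor of 31.7. The lines of Ccn1, Ccn2, Ccn4 and Ccn5 are lower at PP1 and both lines of Ccn3 are higher at PP1.

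Ccn2, connective tissue growth factor, promotes matrix synthesis and is needed for normal skeletal growth. Its single probe set had a signal of 1126 in the PP1 culture, against 6535 in the DMSO culture. The PP1 signal was thus 17.2% of the DMSO signal, a log2 ratio of -2.54. This was the fifth lowest ratio of all measured genes (rank 5 of 12111), and only 0.033% of them lay lower. Both signals were far from the floor, at 35.5 times it in the PP1 culture and 206 times it in the DMSO culture, so the ratio is no bound. With only 1 probe set, the value has no check from a second set of probes.

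Ccn4 is known to be expressed by osteoprogenitors during bone formation and fracture repair. Its brightest probe set gave a signal of 622 in the PP1 culture and 2719 in the DMSO culture, a log2 ratio of -2.13. The other probe set, against the same reference transcript, gave 475 in the PP1 culture and 3008 in the DMSO culture, a log2 ratio of -2.66. Both were more than 4-fold lower, and the first of them, which is the brightest by mean log2 signal over both arrays, ranked 14 from the lowest. The probe sets differed from each other by 0.53 on the log2 scale and gave 4.37-fold and 6.33-fold after scaling. In the values as deposited they gave 7.34-fold and 10.6-fold. The log2 ratio of Ccn4 minus that of Ccn2 was 0.41 by the brightest probe sets and -0.13 by the other Ccn4 probe set, so the order of these 2 genes depends on the probes.

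Ccn1, an angiogenic and adhesive protein and an immediate early gene in fibroblasts, had 4 probe sets. The brightest had a signal of 1428 in the PP1 culture and 2837 in the DMSO culture, a log2 ratio of -0.99. The next had 1316 in the PP1 culture and 2655 in the DMSO culture, a log2 ratio of -1.01, so that these bright probe sets fall on either side of the 2-fold line. The remaining pair, which share a source sequence, were much dimmer, with signals of 115 and 118 in the PP1 culture and 195 and 166 in the DMSO culture. Their log2 ratios were -0.76 and -0.50. All 4 were therefore lower in the PP1 culture, and the dim pair gave the smaller differences. By its brightest probe set Ccn1 ranked 195 from the lowest, with 1.60% of measured genes below it.

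The promoter of Ccn1 is shown because the gene is a known target of TEAD, SRF and CREB, factors that answer to the cytoskeleton and to growth factors. It is the sequence of the 250 bases before the RefSeq start site, in build GRCm38.p6 at chr3:145649986-145650235, minus strand, read 5′ to 3′. The capitals mark, in order, a TEAD motif, the core of a CREB site and a TATA box.
Ccn1 promoter: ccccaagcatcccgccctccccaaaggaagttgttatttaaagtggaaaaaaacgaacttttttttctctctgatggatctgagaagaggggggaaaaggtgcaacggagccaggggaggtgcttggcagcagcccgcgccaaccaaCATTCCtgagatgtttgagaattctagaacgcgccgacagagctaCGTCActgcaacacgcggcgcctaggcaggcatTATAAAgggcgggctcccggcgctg
The TEAD motif searched was GGAATG on both strands. It matched once, on the reverse strand, with its outer base at position -103 from the start site, and 12.6% of 32851 promoters of the same length hold it. The CREB core TGACG matched once, also on the reverse strand, at -58, and 17.8% of promoters hold it. TATAAA, searched on both strands, matched once, forward, at -25, and 12.4% of promoters hold it. The CArG box bound by SRF, which 1.47% of promoters hold, had 0 matches in this window. CAGAC for SMAD (42.2% of promoters), TGANTCA for AP-1 (6.75%) and CTTTGA for TCF/LEF (13.8%) had 0 matches as well. These marked motifs do not overlap each other, and a match of letters does not show that a factor binds. Ccn1 was the only member with a promoter in the RefSeq table used, and Ccn2, Ccn3, Ccn4 and Ccn5 are named only.

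Ccn5, which is known to oppose growth and fibrosis in muscle cells, had 1 probe set. Its signal was 1235 in the PP1 culture and 2196 in the DMSO culture, a log2 ratio of -0.83, or 1.78-fold lower. It ranked 351 from the lowest, with 2.89% of measured genes below it. Ccn5 and Ccn1 thus lay close together: the log2 ratio of Ccn5 minus that of Ccn1 was 0.16 by the brightest probe sets and from -0.33 to 0.18 over the 4 pairs of probe sets.

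Ccn3 was the only member with a higher signal in the PP1 culture. Its brightest probe set had 4100 in the PP1 culture and 1617 in the DMSO culture, a log2 ratio of 1.34. The other, designed against the same sequence, had 3590 in the PP1 culture and 1595 in the DMSO culture, a log2 ratio of 1.17. Both were more than 2-fold higher and differed by 0.17 on the log2 scale. By the brightest probe set Ccn3 ranked 123 from the highest, with 1.01% of measured genes above it. The name of the brightest probe set marks some of its probes as matching other sequences too, which is also true of the brightest Ccn1 probe set.

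The direction of Ccn3 did not depend on the scaling. In the values as deposited, before any scaling, its probe sets stood at 2440 and 2136 in the PP1 culture against 1617 and 1595 in the DMSO culture. The bulk of genes was dimmer on the PP1 array as deposited, with an all-gene median log2 ratio of -0.70, so Ccn3 was higher in the face of an array that was dimmer overall. Ccn2, Ccn4, Ccn1 and Ccn5 were lower in the values as deposited too, with log2 ratios of -3.29, -2.88, -1.74 and -1.58 by their brightest probe sets. When the arrays were scaled to 18 control probe sets for bacterial RNA spiked into the hybridization, Ccn3 stood at 0.50 and Ccn2 at -3.38.

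**Figure D2:**
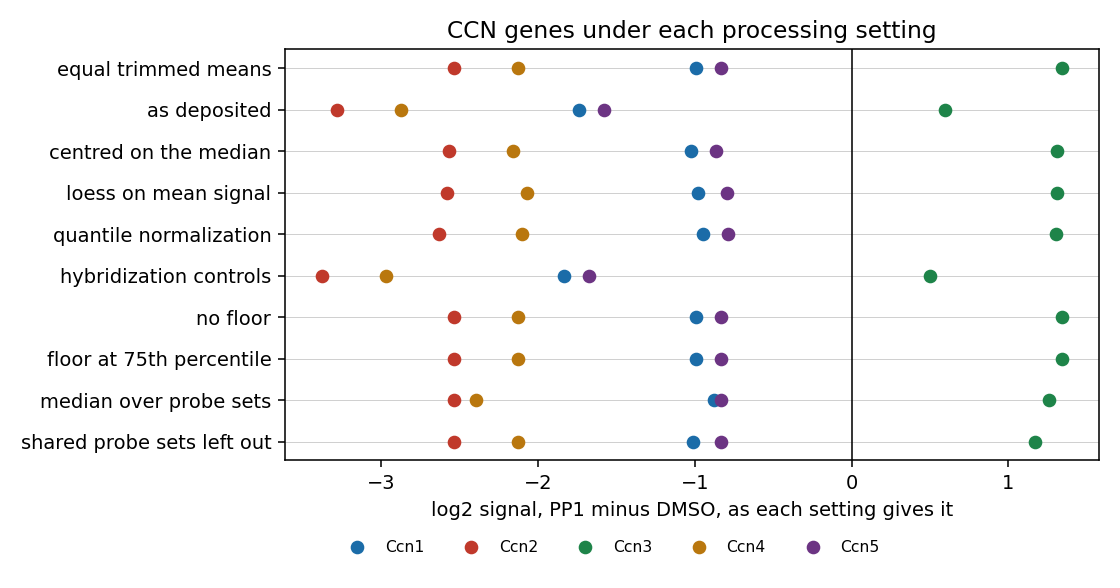
Log2 ratio, PP1 minus DMSO (x axis), of the 5 CCN genes under each processing setting (y axis), as each setting gives it; each point is 1 gene and there are no error bars because each treatment has 1 array. Ccn3 lies above 0 and the others below 0 in all 10 settings, and the whole family lies lower in the 2 settings that do not equalise the arrays.

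Differences between members within the family do not depend on any factor applied to a whole array. The log2 ratio of Ccn3 minus that of Ccn2 was 3.88, and 3.71 by the other Ccn3 probe set, so the balance of these 2 transcripts differed 14.7-fold between the cultures. The log2 ratio of Ccn4 minus that of Ccn3 was -3.47, and from -4.00 to -3.30 over 4 pairs of probe sets. The log2 ratio of Ccn3 minus that of Ccn1 was 2.33, and from 1.67 to 2.35 over 8 pairs. The log2 ratio of Ccn5 minus that of Ccn3 was -2.17 by the brightest probe sets. In no pair of probe sets did Ccn3 come closer than 1.67 to another member. Among the 4 lower members, Ccn2 and Ccn4 lay apart from Ccn1 and Ccn5: the log2 ratio of Ccn2 minus that of Ccn1 was -1.55, and that of Ccn5 minus that of Ccn4 was 1.30. As a measure of error between probes on these arrays, the SD of the log2 ratio among probe sets of the same gene was 0.26 over 390 genes with several bright probe sets (mean log2 signal of at least 10), and 0.41 over 4745 genes of any signal above the floor. This SD does not cover variation between cultures.

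The 5 brightest probe sets all had a mean log2 signal above 10, a range in which large differences were rare. Of 1425 genes in that range, 8 were at least 2-fold lower in the PP1 culture (0.561%) and 18 at least 2-fold higher (1.26%). Ccn2 had the lowest ratio of the 1425 and Ccn4 the third lowest. The others of the 8 were named after their values were seen. They were Pmepa1 (-2.38), the phosphate transporter Slc20a1 (-2.01, or -0.58 by its other probe set), spermidine synthase Srm (-1.06), the PDGF receptor Pdgfrb (-1.05, or -0.63 by its other probe set), the small heat shock protein Hspb1 (-1.05) and Lrrfip1 (-1.02, its 3 probe sets up to 0.29). Ccn3 stood among the 18 higher genes beside Atp1b1 (1.36, its 5 probe sets from 0.31), Lpl, lipoprotein lipase (1.32), and Abi3bp, a matrix protein (1.31).

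**Figure D3:**
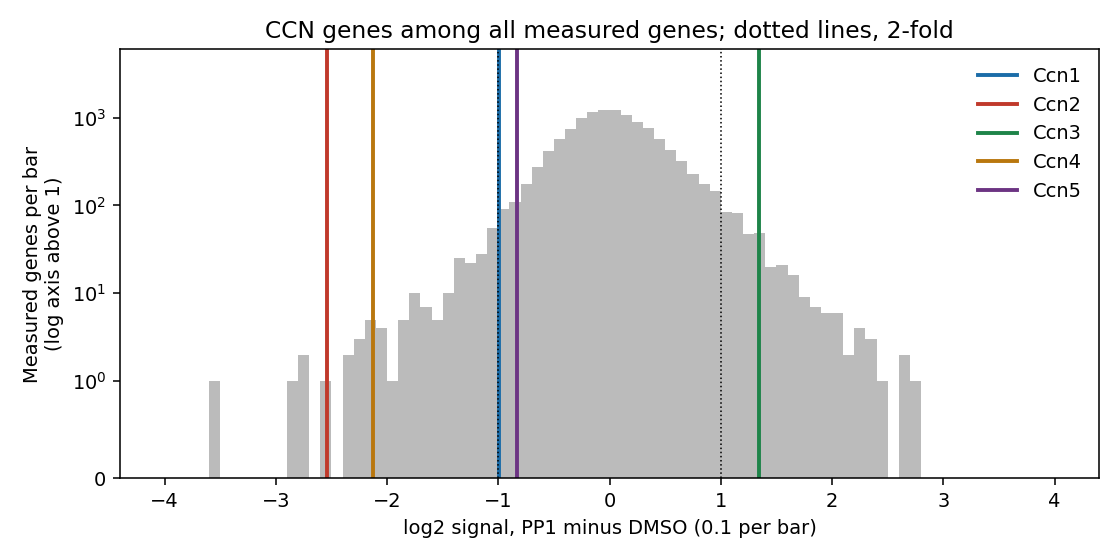
Number of measured genes per interval of 0.1 (y axis, log above 1) by log2 ratio, PP1 minus DMSO (x axis), with each CCN gene as a coloured line at the ratio of its brightest probe set and dotted lines at 2-fold. Ccn2 at -2.54 and Ccn4 at -2.13 lie in the sparse left tail, Ccn1 and Ccn5 near the left dotted line, and Ccn3 at 1.34 in the right tail.

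For each member, genes with a DMSO signal within 2-fold of its own were ranked by closeness of the log2 ratio. Over 2 arrays this likeness is only that of a single ratio. Nearest to Ccn4 were the annexin Anxa8 (-2.12), Slc20a1 (-2.01, or -0.58 by its other probe set) and Pmepa1 (-2.38), out of 964 candidates of which 1 lay at or below Ccn4. No candidate came near Ccn2: of 250, 0 lay at or below it, and the nearest, Pdgfrb, was 1.48 away. Pdgfrb stood at -1.05, or -0.63 by its other probe set. Nearest to Ccn3 were Lpl (1.32), the caveolar protein Cavin1 (1.19, but 0.08 from its second probe set) and the fibulin-like Efemp1 (1.19), with 2 of 1711 candidates at or above Ccn3. Ccn1 had Lrrfip1, ornithine decarboxylase (Odc1) and the proline synthesis enzyme Aldh18a1 within 0.054, and Ccn5 had the metalloprotease Adam12, Nme1 and the collagen Col18a1 within 0.010. For Lrrfip1, Aldh18a1, Adam12 and Nme1 another probe set lay above 0, up to 0.29, so the likeness holds only by their brightest probe sets.

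The genes through which CCN proteins act lay near the bulk of genes by their median. Of 20 listed receptors and co-receptors 16 were measured, 8 below and 8 above 0, with a median log2 ratio of 0.03, against 0.01 over all measured genes, and 0 of 16 were 2-fold lower or higher. Integrin alpha-v (Itgav), which pairs with several beta chains to bind CCN1 and CCN2, had a signal of 1313 in the PP1 culture and 2173 in the DMSO culture, a log2 ratio of -0.73, but 0.36 by its other probe set. Syndecan-4 (Sdc4) stood at -0.55, or 0.31 by its other probe set. Integrin beta-1 (Itgb1, 0.51, its 4 probe sets from -0.01 to 0.68) and alpha-6 (Itga6, 0.48) were on the other side. The endocytic receptor Lrp1 stood at -0.27, or 0.85 by its other probe set, and integrin beta-3 (Itgb3) had 0 probe sets above the floor. Among the ligands and matrix proteins that CCN proteins bind, 11 of 13 were measured, with a median of 0.15. The sign of this median depended on the processing. After a shift to the all-gene median of the main ratios, it was -0.10 with quantile normalization and -0.22 by the median over probe sets. Of the 11, 1 was at least 2-fold lower, against 1.55% of measured genes. This was aggrecan (Acan), with 73.4 in the PP1 culture and 167 in the DMSO culture (-1.18). Tgfb1 was 1.97-fold lower, with 341 in the PP1 culture and 673 in the DMSO culture, and decorin (Dcn) 1.58-fold higher.

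Transcripts of the factors that regulate Ccn1 and Ccn2 lay near the bulk of genes by their median. Of 19 listed Hippo and SRF regulators 18 were measured, with a median of -0.04, 11 below 0 and 0 at least 2-fold lower or higher. That count of 0 holds only for the brightest probe sets. Lats2 stood at -0.65 (its 4 probe sets from -1.52 to 0.04), Sav1 at 0.45, or 1.19 by its other probe set, and Nf2 at -0.05 (its 3 probe sets up to 1.25). Vgll3 stood at -0.60, Mrtfa at 0.54 and Tead4 at -0.65, the last only a bound because its PP1 signal lay under the floor. Yap1 had 1192 in the PP1 culture and 1163 in the DMSO culture, a log2 ratio of 0.04. Wwtr1, which encodes TAZ, stood at -0.19 (its 3 probe sets from -0.71 to -0.12), Tead1 at 0.35 but -0.69 by its other probe set, and Srf at -0.03. The largest ratio of this list was that of Tead2, with 405 in the PP1 culture and 203 in the DMSO culture (0.998). The arrays report RNA, so the location or phosphorylation of these proteins was not measured.

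Other YAP and TEAD targets lay below 0 more often than above it by their brightest probe sets. With the CCN genes left out, 21 of 21 were measured, 14 below 0, against 49% of measured genes, and 7 above 0. Their median was -0.12, and 2 were at least 2-fold lower, against 1.55% of measured genes. These were the kinase Nuak2, with 67.8 in the PP1 culture and 228 in the DMSO culture (-1.75), and tissue factor (F3, -1.43). Ajuba, a LIM protein of the Hippo pathway, stood at -0.83 and Ankrd1, a muscle and fibroblast target, at -0.69 from a dim signal (82.9 in the PP1 culture, 134 in the DMSO culture). Igfbp3 was on the other side at 0.72. The list holds values between -1.75 and 0.72, none of them as low as Ccn2, while Nuak2 and F3 were lower than Ccn1 (-0.99).

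TGF-beta response genes were the list with the lowest median outside the family. Of 16 listed 14 were measured, with a median of -0.74. Of the 14, 12 lay below 0, against 49% of measured genes, and 2 above 0. At least 2-fold lower were 5 of the 14, against 1.55% of measured genes. Pmepa1 and Skil, which restrain SMAD signalling, stood at -2.38 and -2.22, and the NADPH oxidase Nox4 at -2.23. The activin subunit Inhba stood at -1.88 and the repressor Bhlhe40 at -1.47. Of these only Pmepa1 (-2.79 to -2.17) and Nox4 (-2.23 and -1.74) were measured by several probe sets. Fibronectin (Fn1), also a response gene, stood at 0.42, or -0.57 by its other probe set. TGF-beta ligands, receptors and SMADs had 15 of 15 measured, with a median of -0.27. Of these 11 lay below 0, against 49% of measured genes, and 4 above 0. None passed 2-fold lower, with a count of 0, but this holds only for the brightest probe sets. By the median over probe sets, after a shift to the all-gene median of the main ratios, the list median was -0.13 and 6 of 15 lay above 0. Tgfbr3 (1.05) and Ltbp4 (1.08) were at least 2-fold higher, the inhibitory Smad7 stood at -0.70 and the receptor Tgfbr1 at -0.59. Earlier results of these data on Pmepa1, Skil and Nox4 were known when the list was chosen, so its median is not independent evidence.

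Canonical Wnt targets lay near the bulk of genes by their median. Of 17 listed 12 were measured, with a median of 0.08. Of the 12, 4 lay below 0, against 49% of measured genes, and 8 above 0, against 51%. Only 1 was at least 2-fold lower, against 1.55% of measured genes. This was Myc (-1.02), which other pathways drive too. Its place past 2-fold depended on the scaling. After a shift to the all-gene median of the main ratios, Myc stood at -0.98 with quantile normalization and -1.05 as deposited. The feedback gene Axin2, among the most general of Wnt targets, had 101 in the PP1 culture and 107 in the DMSO culture, a log2 ratio of -0.09. The feedback gene Nkd2 stood at -0.55 (its 4 probe sets from -0.62 to -0.17), and Lgr5 at 0.40 and Notum at 0.41 were dim. Lef1, Rnf43, Sp5 and Dkk1 had no probe set above the floor.

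Relatives of the CCN proteins by structure or function went both ways. IGF-binding proteins and others that carry the N-terminal module of CCN proteins had 9 of 10 measured and all 9 above 0, against 51% of all measured genes, with a median of 0.26 and 0 at least 2-fold higher. Igfbp5 (0.85, or 2.31 by its other probe set), Igfbp3 (0.72, or 1.45) and Igfbp4 (0.62, its 6 probe sets from 0.62 to 2.66) stood highest. By the median over probe sets, after a shift to the all-gene median of the main ratios, Igfbp5 (1.53), Igfbp4 (1.17) and Igfbp3 (1.04) passed 2-fold. The count of 0 thus holds only for the brightest probe sets. Igfbp7 stood at 0.22, or -1.21 by its other probe set. The count of 9 above 0 is relative to the bulk of genes: as deposited, 1 of 9 lay above 0, and it was 8 of 9 after quantile normalization and 7 of 9 by the median over probe sets. Secreted proteins with a von Willebrand C module had 10 of 13 measured and a median of 0.10. The BMP antagonist Chrdl1 was the only gene of the list past 2-fold, with 189 in the PP1 culture and 54.5 in the DMSO culture (1.79, its 3 probe sets from 0.97 to 1.87), while the BMP modulators Kcp (-0.81, dim) and Bmper (-0.51) were lower.

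Other matricellular proteins had 14 of 16 measured, 8 below and 6 above 0, with a median of -0.15. Tenascin C (Tnc) stood at -1.39, or -1.94 by its other probe set, and Thbs4 at -1.22. On the other side were Tnxb (1.07) and Sparcl1, with 337 in the PP1 culture and 94.3 in the DMSO culture (1.84). Thrombospondin 1 (Thbs1, -0.18) and periostin (Postn, -0.12), both bright, lay near the bulk of genes. Thrombospondin 2 (Thbs2) stood at 0.13, with its 3 probe sets from -0.52 to 0.13. By the median over probe sets, after a shift to the all-gene median of the main ratios, it stood at -0.38.

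**Figure D4:**
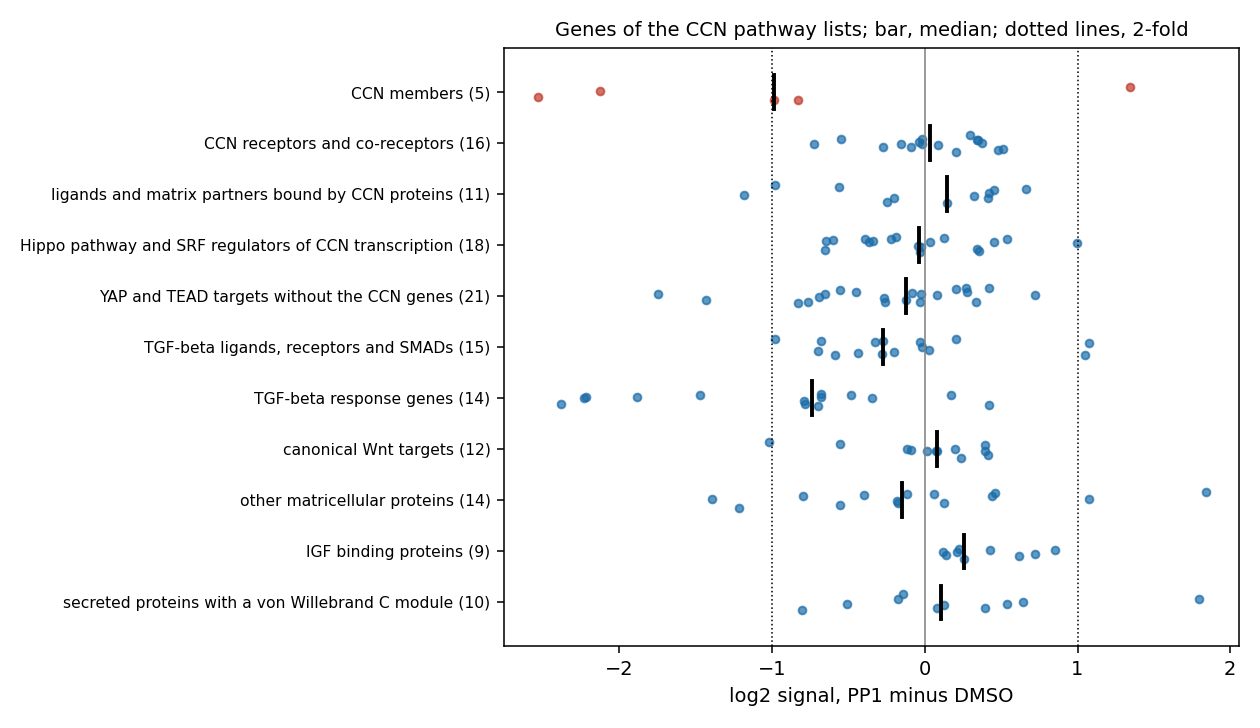
Log2 ratio, PP1 minus DMSO (x axis), of each measured gene in the CCN family and in 10 lists of related genes (y axis, number measured in brackets); each point is 1 gene by its brightest probe set, the black bar is the list median and dotted lines are 2-fold. The CCN family spans from -2.54 to 1.34, the TGF-beta response genes have a median of -0.74, and the receptor and Hippo lists lie between the dotted lines.

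The labelled cell type was checked against its markers. Of 11 osteoblast markers 6 were measured, 4 above 0 and 2 below, with a median log2 ratio of 0.38 and a summed signal of 33296 in the PP1 culture and 24533 in the DMSO culture. Most of this sum came from Col1a1 (9931 in the PP1 culture and 7558 in the DMSO culture), Col1a2 (11166 and 7809) and Sparc (11867 and 8747). Sp7 was dim (53.3 in the PP1 culture and 71.6 in the DMSO culture). The ratios of the bright genes depended on the probes or the scaling. Col1a2 stood at 0.52, its 3 probe sets from -0.91, and Sparc at 0.44, its 3 probe sets from -0.18 to 0.82. After quantile normalization and a shift to the all-gene median of the main ratios, Col1a1 stood at 0.05 and Sparc at -0.0047. Bone sialoprotein (Ibsp) had 37.7 in the PP1 culture and 159 in the DMSO culture. Its log2 ratio was -2.08, and it was the 1 osteoblast marker at least 2-fold lower, against 1.55% of measured genes. Runx2, Bglap and Spp1 had no measured value here. Markers of other mesenchymal cells, which can express CCN genes too, were present. Of 10 smooth muscle and pericyte markers 9 were measured, 7 below and 2 above 0. Of these 4 were at least 2-fold lower, against 1.55% of measured genes, and 1 at least 2-fold higher, against 2.97%. The higher marker was Des (1.43), and Mcam stood at 0.74. Among the 4 lower markers Cnn1 gives only a bound, because its PP1 signal of 28.7 lay under the floor. The others were Actg2 (-1.54), Cspg4 (-1.74, or -0.68 by its other probe set) and Pdgfrb (-1.05, or -0.63 by its other probe set). The list summed to 10302 in the PP1 culture and 14803 in the DMSO culture. Of 10 fibroblast and periosteum markers 8 were measured, 6 above 0, against 51% of measured genes. Among the 8, 2 were at least 2-fold higher, against 2.97% of measured genes. The list had a summed signal of 14315 in the PP1 culture and 10292 in the DMSO culture. Cartilage markers (9 of 10 measured, 6 below 0, against 49% of measured genes) summed to 5697 in the PP1 culture and 6495 in the DMSO culture. Of 7 adipocyte markers 5 were measured, all 5 above 0, against 51% of measured genes. Their median log2 ratio was 0.55 and their summed signal 7659 in the PP1 culture and 4191 in the DMSO culture. Lpl, the nearest to Ccn3 among genes with a DMSO signal within 2-fold, is 1 of these markers. Of 10 skeletal muscle markers 7 were measured, 6 above 0, against 51% of measured genes. They summed to 1976 in the PP1 culture and 1630 in the DMSO culture. Among the 7, 2 were at least 2-fold higher, against 2.97% of measured genes. These 2 were Des, which is in the smooth muscle list too, and Myog. The Myog ratio is only a bound, because its DMSO signal of 23.7 lay under the floor. Macrophage and osteoclast markers (11 of 12 measured, 6 above 0) summed to 11560 in the PP1 culture and 9482 in the DMSO culture, and endothelial markers (4 of 9 measured, 2 above 0) were dim, at 166 in the PP1 culture and 126 in the DMSO culture. The part of such cells in the CCN values was not tested, and fewer cells of a type cannot be told apart from less RNA per cell. RNA integrity was followed by the 3′ over 5′ signal of control genes, whose log2 value for Gapdh was 0.19 on the PP1 array and 0.70 on the DMSO array, and for Actb 0.69 on the PP1 array and 0.55 on the DMSO array. Its part in the CCN values was not tested either.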

How the data were processed

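The deposited values are linear array intensities, 1 for each probe set, made by the authors with MAS5 per the submitters' processing notes; version and target scaling: not given in the sources used here. Of 45101 probe sets 64 were controls. The platform annotation, updated by gene identifier through RefSeq (GRCm38.p6, for names only), named 1 gene for 34945, several for 932 and none here for 9160; 34741 matched RefSeq. The PP1 array was multiplied by 1.68 to equalise the means after trimming 2% at each end (94.1 on the PP1 array and 158 on the DMSO array as deposited). Signals under 31.7, the median of both arrays, were set to that floor. The brightest probe set stood for a gene, and 12111 genes were above the floor on at least 1 array.

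With 1 array per group there is no replicate and no p-value, and the number of arrays limits the precision. Members, lists and alternatives were chosen with earlier results of these data known. Named are all CCN probe sets, in each list up to 6 genes with the largest log2 ratios, and 9 regulators or receptors chosen by name; a gene outside this rule was picked with its value in view. Likeness was sought among genes reaching 4 times the floor. The steps were tested on simulated data. Alternatives were 5 other scalings, 2 other floors, the median over probe sets, leaving out shared probe sets and fold thresholds of 1.5 and 3. Python 3.11.15, pandas 2.3.3 and statsmodels 0.14.6 were used.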

Additional observations from a re-analysis of the deposited data

How the results depend on the processing

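The PP1 array was dimmer as deposited, and the median log2 ratio of all genes was -0.70 there and -0.79 after scaling to the bacterial controls, so the log2 ratios here are shifted to the same all-gene median. Under 9 alternatives Ccn2 ranged from -2.58 to -2.49, Ccn4 from -2.44 to -2.05, Ccn3 from 1.16 to 1.39, Ccn1 from -1.03 to -0.90 and Ccn5 from -0.88 to -0.74. Ccn1 passed 2-fold under 4 of the 9 and Ccn5 under 0. With a floor at the 75th percentile, the dim Ccn1 probe sets stood at -0.22 and 0.01, since that floor of 161 leaves only a bound, and Acan stood at 0.0025 for the same reason. The same floor ended the 2-fold differences of Nuak2 (-0.45), Chrdl1 (0.28) and Ltbp4 (0.13), and brought Nox4 to -1.06 and Sparcl1 to 1.12. The counts of all genes moved: 50 were at least 2-fold higher and 2877 lower as deposited, 35 and 3774 with the bacterial controls, 2064 and 1522 with no floor, and 111 and 84 with the 75th percentile, against 360 and 188. Quantile normalization gave 293 higher and 251 lower. At 1.5-fold the counts were 1282 higher and 893 lower, and at 3-fold 60 and 42. The median of the TGF-beta response list ranged from -0.83 to -0.65, and that of the YAP and TEAD list from -0.31 to -0.01. For the ligands and matrix proteins that CCN proteins bind, it ranged from -0.22 to 0.15. All list medians moved by less than 0.41.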

Other observations

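Of the 10 genes on either side of the CCN genes on their chromosomes 5 were measured, and all 5 had a log2 ratio below 0, against 49% of measured genes. This was noticed after the values were seen. Moxd1, a monooxygenase-like gene next to Ccn2, had a signal of 255 in the PP1 culture and 548 in the DMSO culture, a log2 ratio of -1.10. Ddah1, a regulator of nitric oxide synthesis next to Ccn1, had 580 in the PP1 culture and 1131 in the DMSO culture, a log2 ratio of -0.96, but its 5 probe sets ran from -1.89 to 0.10. Znhit6, on the other side of Ccn1, stood at -0.39. Ndrg1, next to Ccn4, stood at -0.13 with its 5 probe sets up to 1.45, and Ada, next to Ccn5, at -0.50. The other 5 neighbours were not among the measured genes, among them both neighbours of Ccn3 and the second neighbour of Ccn2.

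Ccn6 (Wisp3), the remaining CCN gene of the mouse, had 1 probe set, which was below the floor on both arrays, with signals of 6.11 in the PP1 culture and 2.26 in the DMSO culture, so no ratio is given.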
